A study of Rattus norvegicus with 8 samples.

Results

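The 10 circadian clock genes described here are Clock, Npas2, Per1, Per2, Per3, Cry1, Cry2, Nr1d1, Nr1d2 and Dbp, chosen by gene name from 14506 measured genes. The choice was made with earlier results of these data known, and the clock gene Bmal1 is not among the 10. Each of the 10 genes was measured by 1 probe set that the platform annotation pairs with that gene alone. The cells were primary ventricular cardiomyocytes of newborn rats (NRVMs), heart muscle cells that are kept for some days in a dish. In 4 arrays the cells had received a precursor of miR-222 and in the other 4 a scrambled control precursor, each at 0.4 µM with Lipofectamine RNAiMAX, and RNA was taken 48 h later. The labels give no rat strain, no time of day and no step that sets the clocks of the cells to a common phase. With 1 time point, a shift in the phase of a rhythm and a change in its mean level cannot be told apart. Untransfected cells were not analysed here, so each difference holds the effects of both precursors.

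The cell cuts such a precursor, a synthetic RNA, into the mature microRNA, which pairs with messenger RNAs mainly through its seed. The labels do not name the arm of miR-222 that was delivered. The 3p arm, the form usually meant by the name, is shown with its relative miR-221-3p because both carry the same seed, bases 2 to 8, in capitals. The sequences are RefSeq's mature forms.
rno-miR-222-3p: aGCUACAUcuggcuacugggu
rno-miR-221-3p: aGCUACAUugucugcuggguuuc
A search of the clock transcripts for matches to this seed was not made here.

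The circadian clock of mammalian cells is a feedback loop of transcription. CLOCK, or its relative NPAS2, pairs with BMAL1 and switches on genes through E-box sequences, among them the Per and Cry genes, whose proteins return to the nucleus and inhibit the pair. A further loop runs through the nuclear receptors REV-ERB alpha and beta (Nr1d1 and Nr1d2), which repress Bmal1, and output factors such as DBP pass the rhythm on through D-box sequences. Heart muscle cells have such a clock of their own, and in the heart it is known for its part in metabolism and in the expression of ion channels.

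With miR-222, 4 of the 10 clock genes were higher, 4 were lower and 2 did not pass the test. Per2 fell most, to a level 1.58-fold below that of control cells. Clock, Cry2 and Per3 were also lower, whereas Cry1, Npas2, Nr1d2 and Dbp were higher, by no more than 1.21-fold. The call of Per3 held in only 2 of the 8 fits that left out 1 array (those without control replicate 1 and without miR-222 replicate 2), that of Dbp was lost whenever a control array was left out, and that of Cry1 was lost without control replicate 1. Without that array, or with each array centred on its median, 2 clock genes were called higher (Nr1d2 and Npas2) and 4 lower. Calls are at an adjusted p under 0.05 in limma over all probe sets, and on the same rule 24.7% of all genes were called, 11.7% higher and 13.0% lower, and 18.9% of all probe sets. The 4 miR-222 arrays and the 4 control arrays did not overlap in 8 of the 10 clock genes, beside 33.3% of all genes. Because the 10 genes were chosen with earlier results of these data known, these shares describe them and test nothing. The labels do not say whether the arrays of a group stem from separate cultures, and the p-values rest on array-to-array spread alone, part or all of which may be technical. Values below are log2 intensities of the authors' table, and each difference is the mean of the 4 miR-222 arrays minus that of the 4 control arrays, with its standard error (SE) from limma.

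**Figure D1:**
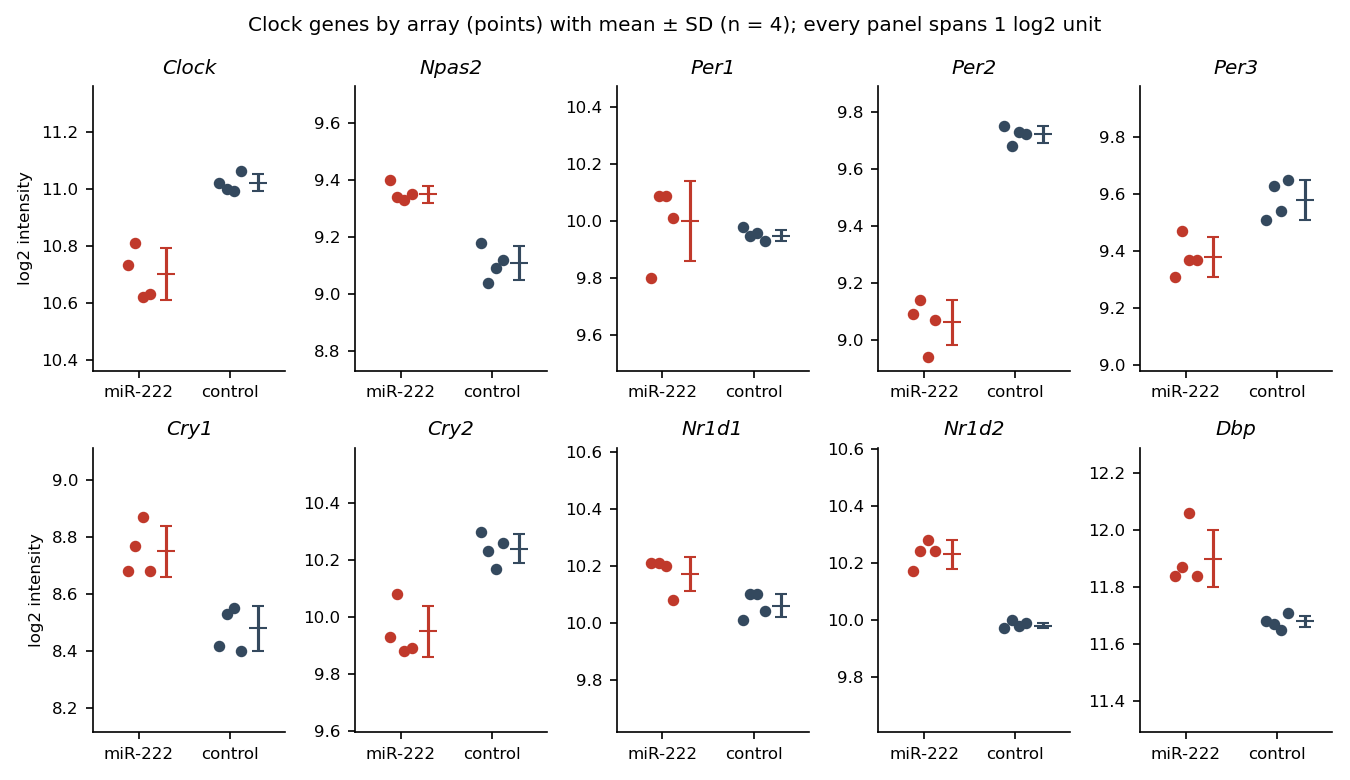
Log2 intensity (vertical axis, each panel spanning 1 log2 unit) of the 10 clock genes in the miR-222 arrays (red, left) and the control arrays (dark, right). Points are arrays and bars are the mean ± SD of 4 arrays; Per2 shows the widest gap, 9.06 ± 0.08 with miR-222 against 9.72 ± 0.03 in control cells, and the groups overlap in Per1 and Nr1d1 alone.

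Array medians ran from 202 to 219 intensity units per array, and the number of arrays limits the precision. As a check of the labels, the kinase gene Hipk2, which the published study reported as a miR-222 target, averaged 10.71 ± 0.12 with miR-222 and 11.93 ± 0.08 in control cells (mean ± SD, n = 4 each, limma adjusted p = 5.14e-05). All 10 cardiomyocyte markers examined were measured, with summed intensities of 86407 to 89449 in miR-222 arrays and 95878 to 97437 in control arrays, and 3 were lower. Those 3 were Myh7 (log2 difference -0.61), Nppa (-0.20) and Ryr2 (-0.14). The 7 that did not pass measured -0.14 (Actn2) to -0.01 (Myh6), so the markers did not fall evenly. Of 10 fibroblast and matrix markers, 5 were lower and 5 did not pass, and their summed intensity was 10501 to 11942 with miR-222 and 13212 to 14475 in control cells. Of 7 macrophage and leukocyte markers 1 was higher, with sums of 971 to 1103 with miR-222 against 968 to 1035 in control cells. Among markers of other cells, 1 of 4 smooth muscle and 1 of 5 endothelial genes measured were lower, and 0 of 2 erythroid and 0 of 2 Schwann and neural genes were called by limma, also at an unadjusted p under 0.05. Over all genes 13% were lower and 11.7% were higher on the same rule. No marker is listed at 0. In bulk samples fewer cells of a type and less RNA per cell cannot be told apart, and the part of these markers in the clock gene differences was not tested.

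The positive limb, the factors that switch E-box genes on, showed opposite changes in its alternative partners of BMAL1. Clock, which encodes the CLOCK subunit, had 10.73, 10.81, 10.62 and 10.63 log2 units in the miR-222 arrays, against 11.02, 11.00, 10.99 and 11.06 in the control arrays. Every miR-222 array was below every control array. The difference was -0.32 (SE 0.05, limma adjusted p = 0.00398), a level 1.25-fold lower with miR-222. Npas2, which encodes the relative of CLOCK that can take its place, had 9.40, 9.34, 9.33 and 9.35 with miR-222, against 9.18, 9.04, 9.09 and 9.12 in control cells. Here every miR-222 array was above every control array, and the difference was 0.25 (SE 0.04, limma adjusted p = 0.00592), a 1.19-fold rise. Their shared partner Bmal1, which is not among the 10 genes, averaged 9.78 ± 0.07 with miR-222 and 9.86 ± 0.02 in control cells and did not pass (difference -0.08, 95% interval -0.19 to 0.03).

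Among the period genes, which encode inhibitors of CLOCK and BMAL1, Per2 showed the widest gap of all 10 clock genes. It had 9.09, 9.14, 8.94 and 9.07 log2 units with miR-222, against 9.75, 9.68, 9.73 and 9.72 in control cells, which are linear intensities of 545, 565, 492 and 539 with miR-222 against 864, 820, 848 and 846 in control cells. The highest miR-222 array lay 0.54 log2 units below the lowest control array. The difference was -0.66 (SE 0.05, 95% interval -0.78 to -0.54, limma adjusted p = 0.000148), which placed Per2 at rank 396 of 14506 genes by size of the difference and at rank 166 by p.

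Per3, a period gene whose loss has little effect on the core rhythm in mice, fell by 0.20 (SE 0.05, limma adjusted p = 0.0323). Its arrays had 9.31, 9.47, 9.37 and 9.37 with miR-222, against 9.51, 9.63, 9.54 and 9.65 in control cells. The groups did not overlap, but the gap between them was 0.04 log2 units.

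Per1, the period gene that in many tissues answers fastest to hormones and other timing cues, did not pass the test. Its values were 9.80, 10.09, 10.09 and 10.01 with miR-222, against 9.98, 9.95, 9.96 and 9.93 in control cells. The miR-222 arrays lay on both sides of the control arrays, with replicate 1 below all of them and the other 3 above. The difference was 0.04 with a 95% interval of -0.11 to 0.20 (limma adjusted p = 0.721). Without miR-222 replicate 1 it was 0.11 (limma adjusted p = 0.163), and without replicate 2 or 3 it was 0.01.

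The cryptochromes, the partners of the period proteins and the stronger repressors of the pair, moved in opposite directions. Cry1 had 8.68, 8.77, 8.87 and 8.68 log2 units with miR-222, against 8.42, 8.53, 8.55 and 8.40 in control cells, and rose by 0.27 (SE 0.06, limma adjusted p = 0.017). Cry2 had 9.93, 10.08, 9.88 and 9.89 with miR-222, against 10.30, 10.23, 10.17 and 10.26 in control cells, a difference of -0.30 (SE 0.06, limma adjusted p = 0.00794). In neither gene did the groups overlap, with Cry1 higher in all 4 miR-222 arrays and Cry2 lower in all 4. The narrowest gaps between the groups were 0.13 and 0.10 log2 units.

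In the nuclear receptor loop, Nr1d2, which encodes REV-ERB beta, rose. It had linear intensities of 1149, 1205, 1244 and 1212 with miR-222, against 1002, 1023, 1010 and 1017 in control cells. Every miR-222 array lay above every control array, and on the log2 scale the groups averaged 10.23 ± 0.05 with miR-222 and 9.98 ± 0.01 in control cells. The difference was 0.25 (SE 0.04, 1.19-fold, limma adjusted p = 0.00356). Nr1d1, which encodes REV-ERB alpha, had 10.21, 10.21, 10.20 and 10.08 with miR-222, against 10.01, 10.10, 10.10 and 10.04 in control cells. Replicate 4 of the miR-222 arrays fell within the control range and the other 3 lay above it. The difference of 0.11 (95% interval 0.00 to 0.22) did not pass (limma adjusted p = 0.16).

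Dbp, the D-box activator and a direct readout of E-box activity in many tissues, rose by 0.22 (SE 0.06, 1.17-fold, limma adjusted p = 0.0294). Its arrays had 11.84, 11.87, 12.06 and 11.84 log2 units with miR-222, against 11.68, 11.67, 11.65 and 11.71 in control cells. All miR-222 arrays lay above all control arrays, and replicate 3 lay above the other 3 miR-222 arrays by more than their own range.

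The difference between close relatives was also measured within each array, as the log2 ratio of the 2 probe sets. The levels of different probe sets are not comparable, so only the change of the ratio is meaningful. Cry1 over Cry2 changed by 0.57, with ratios of -1.31 to -1.01 in miR-222 arrays against -1.88 to -1.62 in control arrays. Npas2 over Clock also changed by 0.57, with -1.47 to -1.28 in miR-222 arrays against -1.96 to -1.84 in control arrays. These were the pairs in which each gene passed the test on its own, in opposite directions.

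Within the period genes Per2 changed against Per1 by -0.70 and against Per3 by -0.46, and Per3 against Per1 by -0.25. Nr1d2 against Nr1d1 changed least, by 0.14, with ratios of -0.04 to 0.17 with miR-222 against -0.12 to -0.04 in control cells, so that those groups nearly touched. The 6 pairs were set up after the values of their genes had been seen, so these ratios describe the arrays and were not tested.

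**Figure D2:**
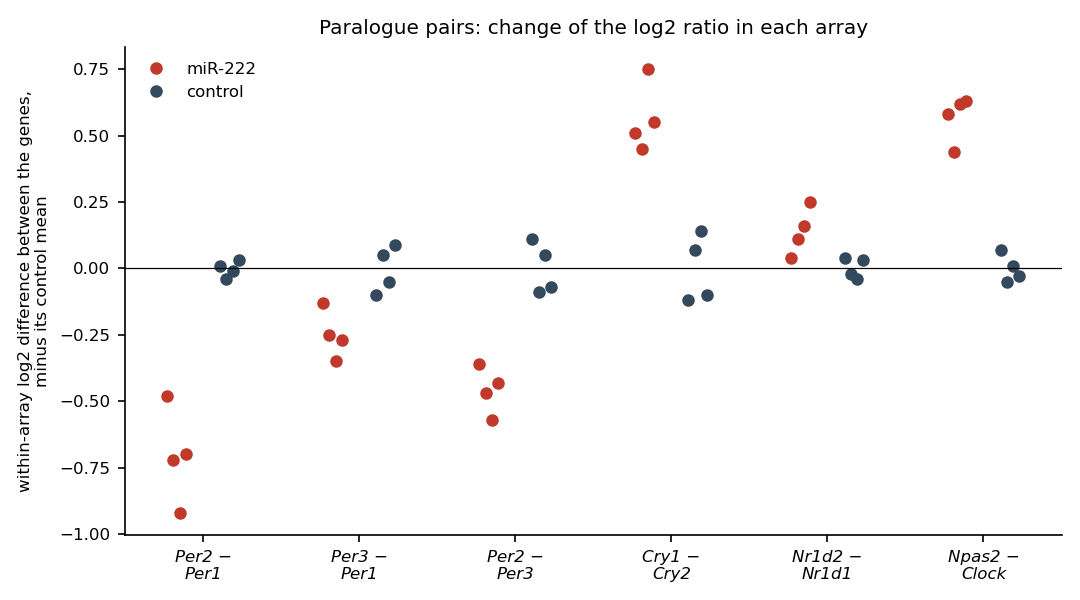
Log2 ratio of 2 related clock genes within each array, minus the mean of that ratio over the 4 control arrays (vertical axis, log2 units), for 6 pairs; red points are miR-222 arrays (left) and dark points control arrays (right). Cry1 over Cry2 and Npas2 over Clock each lie 0.57 higher on average with miR-222, Per2 over Per1 lies 0.70 lower, and Nr1d2 over Nr1d1 differs least, by 0.14.

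The median size of the difference was 0.25 log2 units over the 10 clock genes, which were chosen with earlier results known. It was 0.12 over all genes and 0.32 over all called genes. Signed differences had a median of 0.08 in the clock genes and 0.01 in all genes. All 10 clock genes lay above the median level of the probe sets, whereas values and shares over all genes include dimmer ones. With the dimmest 40% of probe sets left out, 6381 probe sets were called, against 5508 with all of them. Apart from Per2, the called clock genes ranked between 2006 (Clock) and 4172 (Per3) of 14506 by size.

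**Figure D3:**
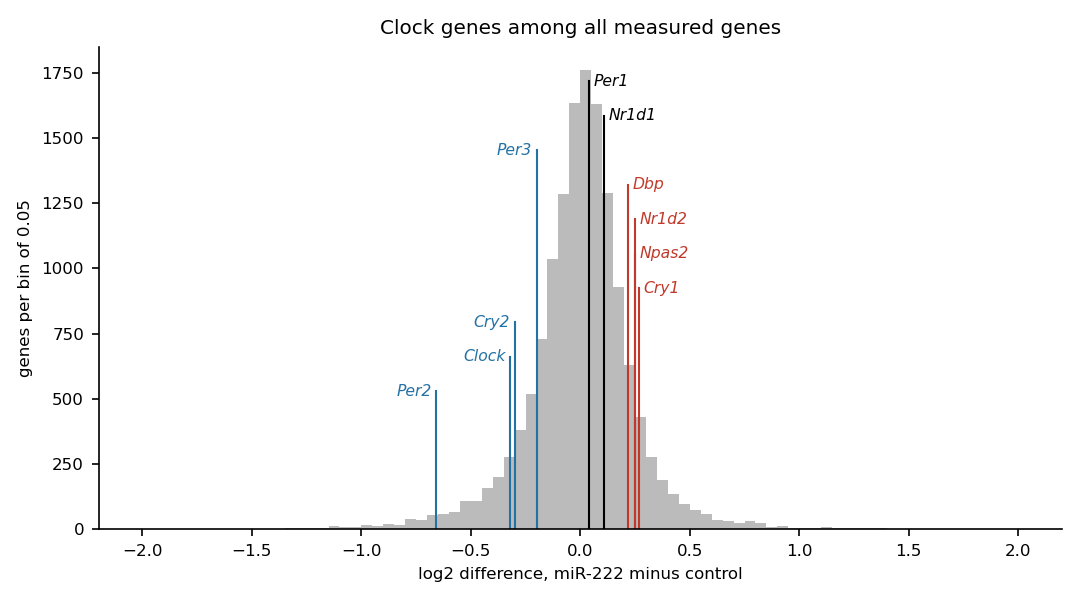
Number of genes (vertical axis) by log2 difference, miR-222 minus control (horizontal axis, bins of 0.05), for 14506 genes, with the 10 clock genes marked by lines whose heights only separate the labels. Red lines are called higher, blue lines called lower and black lines not past the threshold; Per2, at -0.66, lies in the left tail and the others between -0.32 and 0.27.

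The wider clock pathway was read from a list of 41 genes that holds the 10, of which 34 were measured. Outside the 10 clock genes, 3 of 24 measured members were higher, 3 were lower and 18 did not pass, near the background of 24.7% called. Among the E-box repressors Bhlhe41 (DEC2), which competes with CLOCK and BMAL1 for E-boxes, rose by 0.56 (SE 0.08, limma adjusted p = 0.00193). It had 9.75, 9.80, 9.97 and 9.83 with miR-222, against 9.29, 9.12, 9.44 and 9.27 in control cells, with no overlap. Its relative Bhlhe40 (DEC1) averaged 12.03 ± 0.39 with miR-222 and 11.93 ± 0.16 in control cells and did not pass, with replicates 2 and 3 of the miR-222 arrays above the control arrays and replicates 1 and 4 below them.

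Tipin, the partner of Timeless at the replication fork, fell by 0.81 (SE 0.11, limma adjusted p = 0.00201), with 7.76 to 8.29 in miR-222 arrays and 8.88 to 9.0 in control arrays. Timeless itself, linked to the mammalian clock less firmly than its fly namesake, measured -0.15 (95% interval -0.40 to 0.11), with -0.07 without miR-222 replicate 2 and -0.24 without miR-222 replicate 4. Bmal2, a relative of Bmal1, had an adjusted p of 0.0492 in limma at a difference of -0.32, with 1 miR-222 array inside the control range, and it passed in 7 of the 16 fits made. The D-box factors beside Dbp did not pass. Tef, an activator like DBP, measured -0.04 and Nfil3, which represses D-box genes, measured 0.27 with 95% intervals of -0.15 to 0.07 and -0.11 to 0.66. Nfil3 measured 0.12 without miR-222 replicate 2, which stood at 10.76 log2 units.

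Kinases and turnover factors of the clock gave 0 calls among 7 measured genes at an adjusted p under 0.05 in limma. On the same rule 24.7% of all genes were called. The casein kinase genes Csnk1d and Csnk1e, whose products mark period proteins for destruction, measured -0.04 and 0.10, with 95% intervals of -0.14 to 0.06 and -0.00 to 0.20. Gsk3b, a further clock kinase, had 11.60 to 11.80 with miR-222 and 11.82 to 11.91 in control cells, and did not pass (difference -0.16, limma adjusted p = 0.0731). It passed in 6 of the 16 fits made, among them those with median centring (adjusted p = 0.0393) and without miR-222 replicate 2 (adjusted p = 0.0383), and Btrc, part of a ubiquitin ligase, passed in 1. At an unadjusted p under 0.05 the fit with all arrays called 2 of the 7.

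Of 9 clock-controlled outputs 2 were higher, 1 was lower and 6 did not pass, beside 24.7% of all genes called. Kcnip2, a potassium channel subunit whose rhythm in mouse heart depends on KLF15, averaged 11.71 ± 0.15 with miR-222 and 10.04 ± 0.11 in control cells (difference 1.67, SE 0.09, limma adjusted p = 4.25e-05). Klf15 itself averaged 8.52 ± 0.14 with miR-222 and 8.31 ± 0.06 in control cells and did not pass (difference 0.21, limma adjusted p = 0.0967), though it passed in 2 of the 16 fits. Klf9, a factor induced by glucocorticoids, rose by 0.23 (SE 0.05), and Tspo, an outer mitochondrial membrane protein, fell by 0.28 (SE 0.06). Nampt, which makes the NAD precursor NMN, measured 0.33 (limma adjusted p = 0.057) and Pdk4, which restrains pyruvate oxidation, 0.32 (limma adjusted p = 0.167). Nampt passed in 6 of the 16 fits, at 0.35 with quantile normalization (limma adjusted p = 0.0471) and 0.40 without miR-222 replicate 4 (limma adjusted p = 0.028). Pdk4 passed in 2, at 0.41 with array weights (limma adjusted p = 0.045) and 0.46 without miR-222 replicate 2 (limma adjusted p = 0.0142).

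**Figure D4:**
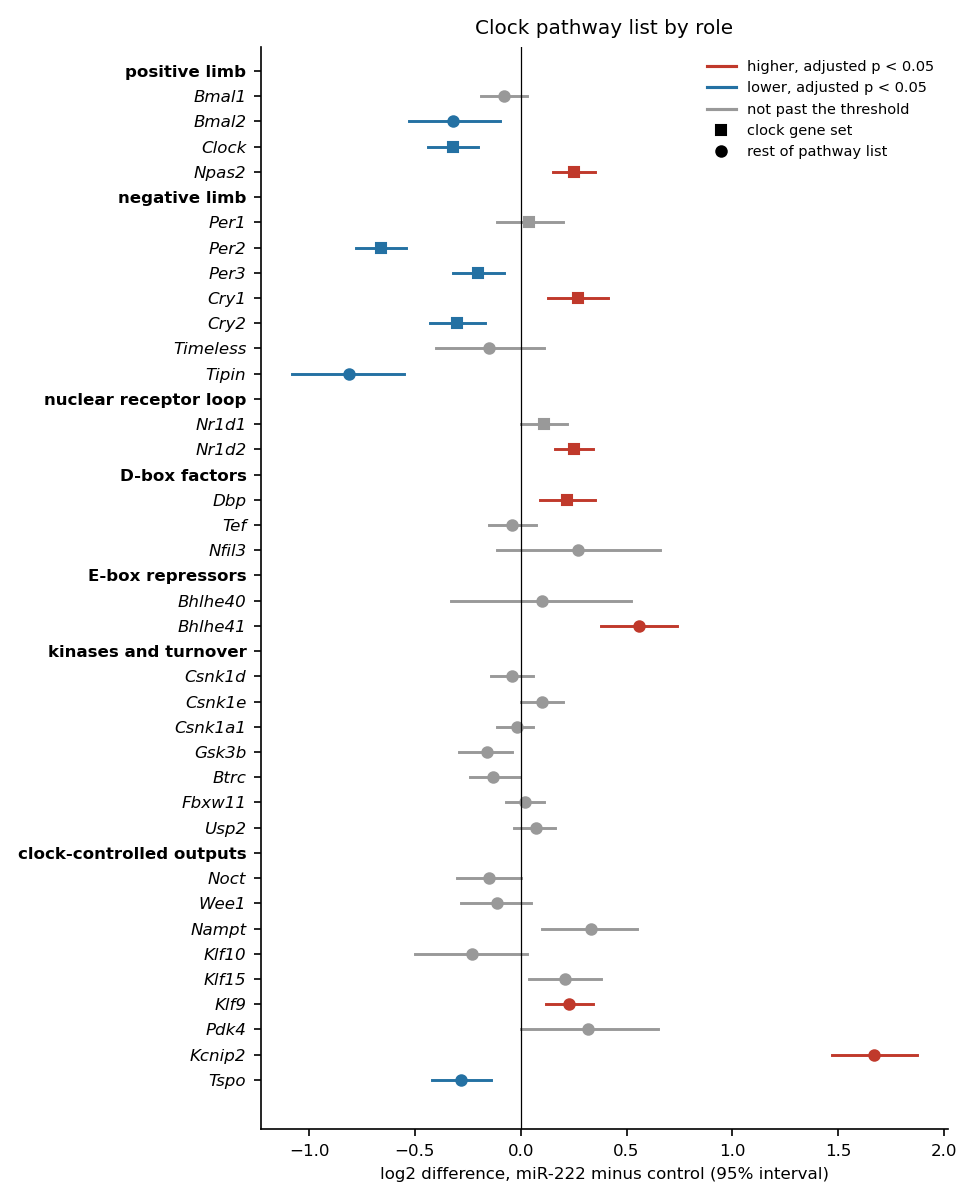
Log2 difference, miR-222 minus control (horizontal axis), with its 95% interval for the 34 measured genes of the clock pathway list, grouped by role from top to bottom. Squares are the 10 clock genes and circles the rest of the list, red called higher, blue called lower and grey not past the threshold. Kcnip2, at 1.67, lies farthest from 0, and no kinase or turnover gene passed, beside 24.7% of all genes.

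The promoters of the clock genes are shown where they hold a letter motif of the clock, because such motifs are how these genes answer one another. RefSeq promoter windows in build GRCr8, 300 bases running from 250 before to 50 after an annotated start, were found for 9 of the 10 genes in 11 windows, and Cry1 was not among them. They were searched on both strands for the E-box CACGTG, its variant CACGTT, the D-box TTATGTAA, the receptor core AGGTCA and the cAMP element TGACGTCA. The E-box and the cAMP element read the same on both strands, and no motif overlapped another in these windows. Among these 9 genes Per2 alone held both an E-box variant and a D-box in its window. Its window, chr9:99496944-99497243 on the minus strand, carries the D-box starting 192 bases and the variant E-box starting 62 bases before the start, both in capitals.
Per2: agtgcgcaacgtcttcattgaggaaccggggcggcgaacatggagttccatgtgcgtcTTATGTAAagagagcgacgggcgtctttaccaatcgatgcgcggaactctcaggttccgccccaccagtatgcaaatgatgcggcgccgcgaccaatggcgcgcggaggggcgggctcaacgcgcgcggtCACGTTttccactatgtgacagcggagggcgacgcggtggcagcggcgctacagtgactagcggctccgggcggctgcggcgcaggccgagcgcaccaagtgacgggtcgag

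The variant E-box CACGTT was also in the windows of Cry2, which was lower, and of 1 of the 2 annotated starts of Nr1d1, which did not pass, in each case read as its reverse complement. The canonical E-box was in the window of the other Nr1d1 start, and the receptor core was in that of Nr1d2, which was higher. The 60-base stretches around them, with the motif in capitals, are chr3:98860617-98860676 (minus strand) for Cry2, chr10:84231954-84232013 (minus strand) and chr10:84229613-84229672 (minus strand) for the upstream and downstream Nr1d1 starts, and chr15:9954820-9954879 (plus strand) for Nr1d2.
Cry2: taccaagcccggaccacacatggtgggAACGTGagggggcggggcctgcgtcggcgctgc
Nr1d1, upstream start: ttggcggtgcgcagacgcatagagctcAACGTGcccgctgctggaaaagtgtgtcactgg
Nr1d1, downstream start: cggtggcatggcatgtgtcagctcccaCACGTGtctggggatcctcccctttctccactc
Nr1d2: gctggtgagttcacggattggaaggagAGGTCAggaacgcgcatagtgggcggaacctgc
Over all 33469 windows of this length, CACGTG was in 6.42%, CACGTT in 4.83%, TTATGTAA in 0.893%, AGGTCA in 16.2% and TGACGTCA in 1.83%. The last was in no window of the clock genes, and the windows of Per1, Per3, Dbp, Clock and Npas2 held none of these motifs. Whether the motifs bear on the differences was not tested. These are letter matches in short windows, and elements farther from the start were not searched.

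The genes whose pattern over the 8 arrays was most like that of Per2 were Wls (Pearson r = 0.9984), Arhgap24 (0.9981), Plagl1 (0.9978), Rbfox2 (0.9975) and Nuak1 (0.9974), out of 7252 genes above the median level of all genes. None of the 5 is on the clock pathway list, which covers only 34 of the 14506 measured genes, so their absence tells little. Wls, which carries Wnt proteins to the cell surface, averaged 11.15 with miR-222 and 12.03 in control cells, and the 5 differed by -1.0 (Plagl1) to -0.51 (Rbfox2). The likeness is a description over 8 points that share the same split into 2 groups.

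Replicate 3 of the miR-222 arrays lay farthest from the control mean in 6 of the 8 called clock genes, whereas replicate 1 did so in 2 and replicates 2 and 4 in 0. Without that array 7 clock genes were called, Per3 being lost, and Per2 stood at -0.62. Across the 8 fits that each left out 1 array, Clock kept its call at -0.36 to -0.30, Cry2 at -0.34 to -0.28, Nr1d2 at 0.23 to 0.27, Npas2 at 0.23 to 0.27 and Per2 at -0.69 to -0.62. Per3, which lost its call in 6 of them, measured -0.23 to -0.18, Dbp, which lost it in 4, measured 0.17 to 0.24, and Cry1, which lost it in 1, measured 0.23 to 0.30.

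**Figure D5:**
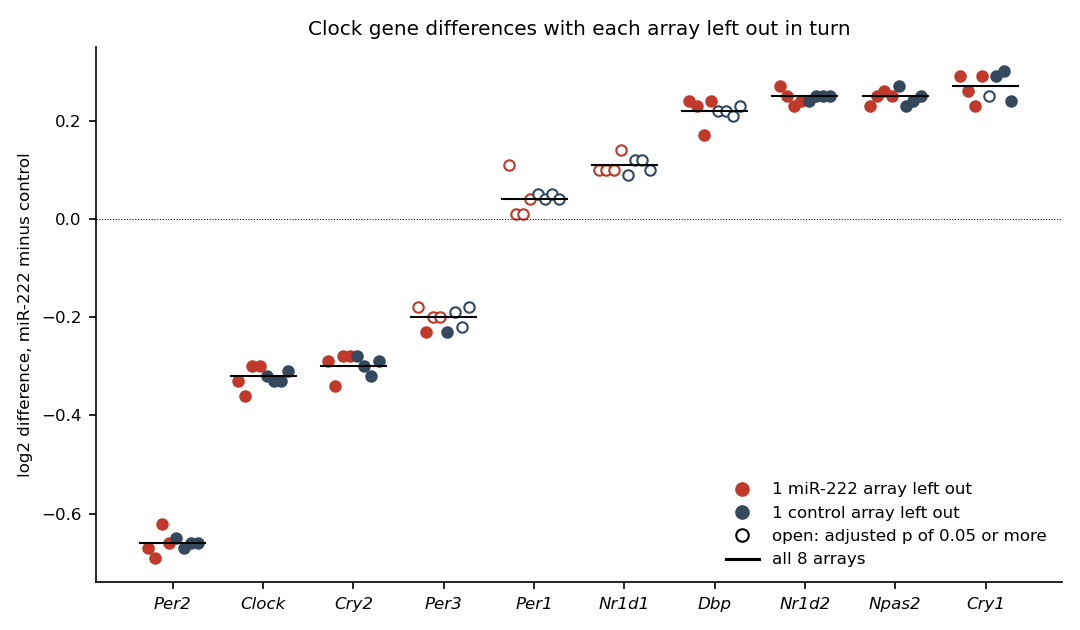
Log2 difference, miR-222 minus control (vertical axis), of each clock gene when 1 array is left out, with red points for a miR-222 array left out (left) and dark points for a control array left out (right). Open points have an adjusted p of 0.05 or more in limma and black bars are all 8 arrays; Per2, Clock, Cry2, Nr1d2 and Npas2 have filled points only.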

How the data were processed

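Gene expression was measured on 8 Affymetrix rat arrays of biotin-labelled RNA, per the labels' protocols. The deposited table holds intensity values of 29170 probe sets on a linear scale (0.8 to 16339), already processed by the authors by a method not given in the sources used here. The series text names another Affymetrix rat array than the annotation with which the table's identifiers pair. A single gene was named for 15310 probe sets, several genes for 323 and no gene for 13537. Replicates are numbered in listing order.

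Values were taken as log2 with no pseudocount (0 values were at or below 0), and all probe sets were fitted in limma 3.58.1 (lmFit, eBayes; R 4.3.3). The 2-sided p-values were adjusted by Benjamini and Hochberg over all probe sets, with a threshold of 0.05. The fit was tested on simulated data. The brightest probe set stood for each gene. Figures were drawn with matplotlib 3.10.9. The clock genes, the lists and the named-gene rule (the 10 genes, list genes past the threshold, up to 12 others, and the 5 genes most like the largest change) were chosen with earlier results of these data known. Alternatives were quantile normalization, median centring, a pseudocount of 16, leaving out the dimmest 40% of probe sets, probe sets of 1 gene only, trended robust eBayes, array weights, the second brightest probe set and leaving out each array.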

Additional observations from a re-analysis of the deposited data

Results flagged for a closer look

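In 3 of 64 gene and group combinations tested, 1 array stood apart from the other 3 of its group by Dixon's criterion (95% level), and chance gives about 1 in 20. Nr1d1 stood at 10.08 log2 units in miR-222 replicate 4, below the 10.20 to 10.21 of the other 3 miR-222 arrays, and without it the difference was 0.14 (limma adjusted p = 0.0782). Dbp stood at 12.06 in miR-222 replicate 3, above the 11.84 to 11.87 of the others, and without it the rise was 0.17 (limma adjusted p = 0.0212). Bhlhe40 stood at 12.17 in control replicate 4, above the 11.82 to 11.88 of the other control arrays.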

How the results depend on the processing

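Across the 15 other settings of the fit, Per2, Clock, Cry2, Nr1d2 and Npas2 kept their direction and their call, with adjusted p of at most 0.0292 (Cry2). The count of 8 called clock genes was 6 with median centring and 6 to 8 with 1 array left out. The count of 4 higher was 2 with median centring, where Cry1 (adjusted p = 0.0525) and Dbp (adjusted p = 0.0666) were lost, and 2 to 4 with 1 array left out, at 2 without control replicate 1. Median centring moved the groups against each other by 0.03 log2 units. The count of 4 lower was 3 to 4 with 1 array left out. Over the pathway list the 14 calls were 11 to 17 and over all probe sets the 5508 calls were 4066 to 6476. Per1 turned to -0.00294 with array weights, and Bhlhe40 to -0.03 with array weights and to -0.04 without miR-222 replicate 2 (-0.04 to 0.22 with 1 array left out). None of these had passed, and the cause was not tested. The 6 ratios of relatives kept their sign in all 15 settings, the smallest, Nr1d2 over Nr1d1, at 0.10 to 0.17. The clock genes have 1 probe set each, so a second probe set gave no value for them. No paired analysis was possible because the labels give no replicate numbers. Signal over background could not be judged without detection calls, but all 10 genes lay above the median level of the probe sets.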

Other observations

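Genes that answer the hormonal cues known to reset peripheral clocks gave 5 calls among 16 measured, near the 24.7% of all genes. Of 7 measured glucocorticoid-induced genes 2 were lower, 1 (Klf9) was higher and 4, Per1 among them, did not pass. Those 4 measured 0.26 (Mt2A, limma adjusted p = 0.0567), 0.07 (Sgk1), 0.05 (Zbtb16) and 0.04 (Per1) log2 units. The median difference over the 7 was 0.05, so the 2 lower genes do not stand for the list. Fkbp5, a chaperone partner of the glucocorticoid receptor, averaged 8.35 ± 0.12 log2 units with miR-222 and 8.80 ± 0.12 in control cells (mean ± SD over 4 arrays, limma adjusted p = 0.006), and Tsc22d3, the leucine zipper protein GILZ, averaged 9.47 ± 0.09 with miR-222 and 9.80 ± 0.07 in control cells (limma adjusted p = 0.00623). Klf9 thus went against the other called members of its list.

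Of 9 measured genes induced by cAMP and CREB 2 were lower and 7 did not pass, beside 24.7% of all genes called. The median difference over the 9 was 0.14 log2 units, so the 2 lower genes do not stand for the list. Among the 7, Nr4a2 and Sik1 each measured 0.25, Pde4d and Nr4a1 each 0.15, and Nr4a3 0.14. Pck1 measured -0.02 and Fos -0.19. Egr1, an immediate early factor, had 9.60, 9.45, 9.22 and 9.39 with miR-222, all below the 9.94 to 10.01 of the control arrays (difference -0.56, limma adjusted p = 0.00191). Crem, which includes the repressor ICER, averaged 8.67 ± 0.07 with miR-222 and 8.94 ± 0.02 in control cells (difference -0.27, limma adjusted p = 0.00433).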
